A study of Mus musculus with 6 samples.

Results

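The genes described here are 9 of the 36811 in the table: Ctla4, Pdcd1, Tigit, Lag3, Havcr2, Btla, Cd96, Cd226 and Cd200. They were taken by name as a set of inhibitory surface receptors of regulatory T cells (Treg), the CD4 T cells that hold immune responses in check and are defined by the transcription factor Foxp3. The set is not uniform in function. Cd226 encodes an activating receptor that competes with Tigit and Cd96 for ligand, and Cd200 encodes a ligand whose receptor, encoded by Cd200r1, is the inhibitory partner.

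RNA was sequenced from Treg sorted by a Foxp3 reporter from the spleen of C57BL/6 mice aged 18 to 21 weeks. The 3 libraries labelled cKO came from mice with the genotype Bach2fl/fl Foxp3EGFP-Cre-ERT2, and the 3 labelled WT from mice with the genotype Bach2+/+ Foxp3EGFP-Cre-ERT2. Both groups therefore carry EGFP and the inducible recombinase Cre-ERT2 at Foxp3, which restricts recombination to Foxp3-expressing cells. The comparison is between these genotypes at Bach2, which encodes a transcriptional repressor. Cre-ERT2 acts only after tamoxifen, and whether, when or for how long it was given is not stated in the sources used here. Whether the libraries of a group came from separate animals is not in the labels, and the p-values below therefore reflect only how much these libraries vary, which may be technical.

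Coinhibitory receptors restrain T cells in several ways. CTLA-4 takes the ligands CD80 and CD86 away from the costimulatory receptor CD28, while PD-1, BTLA and TIGIT carry tyrosine motifs in their tails that recruit phosphatases. LAG-3 is a relative of CD4 that binds MHC class II, and TIM-3, the product of Havcr2, binds galectin-9 and other ligands. On Treg several of these receptors mark activated, suppressive cells and are themselves used to suppress.

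The promoters of Tigit, Havcr2 and Btla are shown because these are the 3 receptors whose values in the libraries labelled cKO and those labelled WT did not overlap. Each sequence runs 5′ to 3′ on the strand of the gene, from 250 bases before to 50 bases after the annotated start in RefSeq on GRCm38.p6. Capitals mark a match to TGANTCA, the core bound by AP-1 and, within a longer element, by Bach2 with small Maf proteins.
Tigit, chr16:43664135-43664434, minus strand: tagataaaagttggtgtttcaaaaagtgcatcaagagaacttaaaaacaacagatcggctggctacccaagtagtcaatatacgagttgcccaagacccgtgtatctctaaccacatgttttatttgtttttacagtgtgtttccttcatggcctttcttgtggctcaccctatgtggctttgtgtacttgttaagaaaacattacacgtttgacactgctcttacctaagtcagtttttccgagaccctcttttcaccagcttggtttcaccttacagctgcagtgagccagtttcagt
Havcr2, chr11:46454681-46454980, plus strand: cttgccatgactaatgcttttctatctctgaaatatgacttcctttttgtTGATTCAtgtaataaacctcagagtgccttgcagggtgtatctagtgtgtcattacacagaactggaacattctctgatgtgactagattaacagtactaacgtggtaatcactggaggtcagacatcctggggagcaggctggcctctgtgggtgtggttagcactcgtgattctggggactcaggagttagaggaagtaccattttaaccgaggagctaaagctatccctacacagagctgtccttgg
Btla, chr16:45224087-45224386, plus strand: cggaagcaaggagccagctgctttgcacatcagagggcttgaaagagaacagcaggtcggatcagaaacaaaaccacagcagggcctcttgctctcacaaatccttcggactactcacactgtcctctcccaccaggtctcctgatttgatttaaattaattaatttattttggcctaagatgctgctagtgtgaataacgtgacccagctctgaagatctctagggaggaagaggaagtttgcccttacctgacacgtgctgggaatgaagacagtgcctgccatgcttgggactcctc

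Promoters of 7 of the 9 genes were matched, those of Ctla4, Pdcd1, Tigit, Havcr2, Btla, Cd96 and Cd200. The 7-letter core TGANTCA was found on either strand in 1 of these 7, that of Havcr2, as TGATTCA starting at position -200 from the start site. Of 32851 promoters of the same length, 7.81% held the core. The longer recognition element of Bach and small Maf proteins, a motif of 10 letters that contains the core, was in none of the 7 and in 0.155% of all promoters. The forkhead motif TGTTTAC was in none of the 7 and in 3.65% of all promoters. A match or its absence describes these letters in this window alone.

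Values are FPKM, fragments scaled by transcript length and by library size, so levels can be compared between genes. The estimated depth lay between 3620000 and 5030000 fragments in the libraries labelled cKO and between 3040000 and 4550000 in those labelled WT. Defining Treg transcripts were present in all 6 libraries, with Foxp3 between 5.75 and 9.44 FPKM in those labelled cKO and between 5.16 and 7.51 FPKM in those labelled WT, and Il2ra, the interleukin-2 receptor alpha chain, between 47.6 and 60.2 FPKM under the cKO label and between 49.5 and 50.6 FPKM in those labelled WT. Of 14 tested Treg markers, 12 were above 0 in their log2 difference, with a median of 0.12. The groups of these markers lay apart in 1 higher and 1 lower under the cKO label, against 10.7% of all genes. Capg averaged 962 FPKM under the cKO label and 770 FPKM under the WT label. Lrrc32 averaged 59.7 FPKM under the cKO label and 77.0 FPKM under the WT label. Bach2, which the floxed alleles target, was measured at 7.88, 9.19 and 6.44 FPKM in cKO 1, 2 and 3, against 3.29, 8.25 and 4.80 FPKM in WT 1, 2 and 3. The groups overlapped (limma, adjusted p = 0.925), and Bach2 was not lower where the label says cKO. Which exons are floxed is not given in the sources used here and FPKM is per gene, so Bach2 does not check the labels, and every direction below rests on them alone. The series' design text describes other samples, Treg with high or low Bach2 from reporter mice, and does not mention these genotypes, so the groups come from the sample labels only. Transcripts of red blood cells stood higher under the cKO label. Markers of erythroid cells and platelets summed to between 257 and 524 FPKM under the cKO label and to between 96.7 and 243 FPKM in those labelled WT, with 6 of 6 tested markers above 0 in their log2 difference and 3 of 6 whose groups did not overlap. Over all 11979 genes tested, 6587 were above 0 and the groups did not overlap in 10.7%. Hbb-bs, a hemoglobin gene, lay between 92.9 and 163 FPKM under the cKO label and between 39.7 and 92.5 FPKM in those labelled WT. No marker of another cell type was listed at 0 in all libraries, and the part of red blood cell transcripts in the receptor values was not tested.

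Over all 11979 genes tested, 3 passed an adjusted p of 0.05 (0.0250%; 0.00835% higher and 0.0167% lower), and 0 of the 9 receptors were among them (limma, Benjamini-Hochberg adjusted). At an unadjusted p under 0.05 there were 2 receptors, Tigit and Havcr2, both higher in the libraries labelled cKO, where 3.59% of all genes stood in that direction, 1.78% in the other and 5.37% in either. Havcr2 no longer had such a p with library weights (limma, unadjusted p = 0.0727) or without WT replicate 3 (0.0595). With library weights Ctla4, higher, and Lag3, lower, came under 0.05 as well (limma, unadjusted p = 0.0355 and 0.037). The groups did not overlap in 3 of the 9 receptors, against 10.7% of all genes. Tigit and Havcr2 were higher, a direction seen in 6.96% of all genes, and Btla was lower, as in 3.75%. Havcr2 passed the minimum mean of 1 FPKM only through the libraries labelled cKO, so it had to differ; without it, 2 of 8 did not overlap. The median log2 difference was 0.14 over the 9 and 0.07 over the 8, beside 0.03 over all genes tested. Over the 14 tested Treg markers it was 0.12, so such a median is not particular to the receptors.

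**Figure D1:**
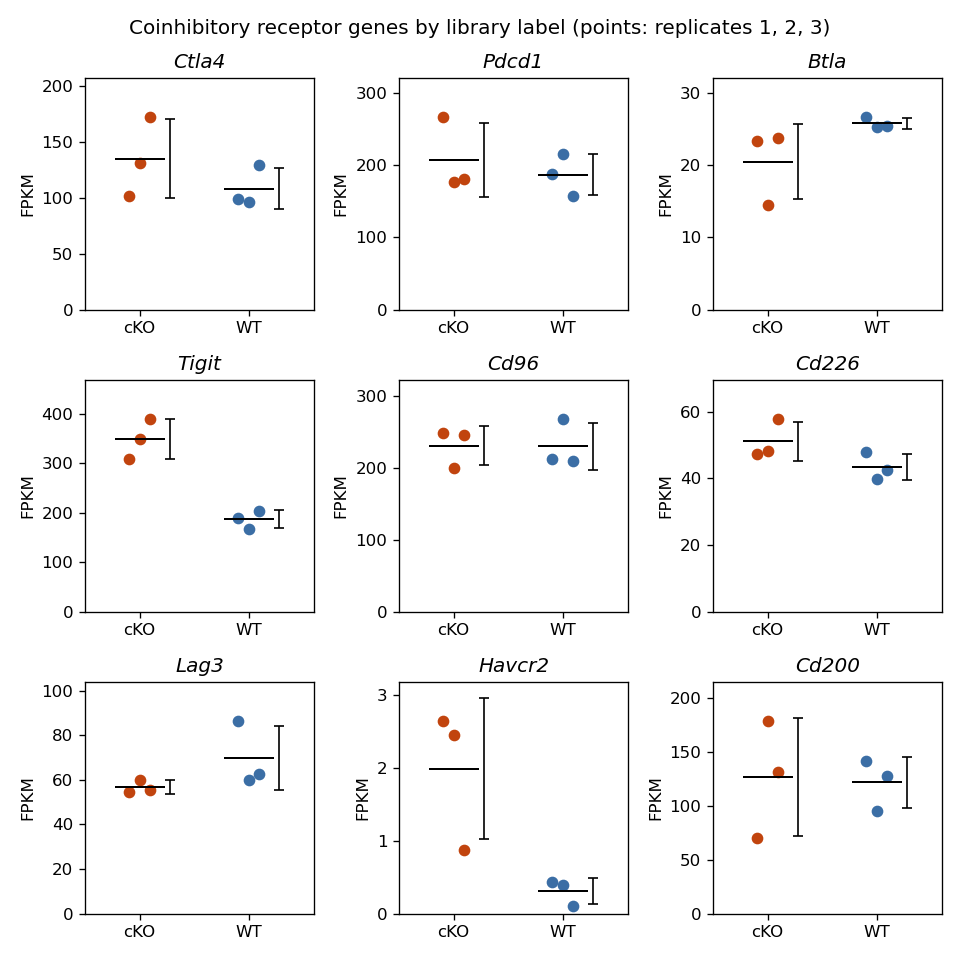
FPKM of the 9 genes in each library (points, replicates 1 to 3 from left to right), with the mean (line) and SD (bar) of the 3 libraries labelled cKO on the left and the 3 labelled WT on the right; each axis starts at 0. Tigit and Havcr2 lie higher and Btla lower in every library labelled cKO, and the other genes overlap.

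Tigit (ENSMUSG00000071552) was the most abundant of the 9 in the libraries labelled cKO and had the smallest p of the set. TIGIT binds CD155, the product of Pvr, on antigen-presenting cells and inhibits the T cell that carries it. It stood at 310.0, 349 and 390.2 FPKM in cKO 1, 2 and 3, against 190.4, 168 and 203 FPKM in WT 1, 2 and 3. The lowest of the libraries labelled cKO was above the highest of those labelled WT, and at least 469 fragments lay behind each value. The ratio of means was 1.87. The fitted log2 difference of 0.90 had a standard error of 0.142, with 0.56 and 1.24 as the bounds of its 95% interval (limma, adjusted p = 0.589). It stayed between 0.78 and 1.05 in 16 alternatives without passing in any of them (limma, adjusted p from 0.149 to 1).

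Cd96 and Cd226, which share the ligand CD155 with Tigit, overlapped between the groups. Cd96 (ENSMUSG00000022657), whose product binds CD155 and can inhibit T and NK cells, had 248, 199.6 and 246 FPKM in cKO 1, 2 and 3, against 213, 268 and 209.5 FPKM in WT 1, 2 and 3. Its log2 difference was 0.01 with a 95% interval from -0.37 to 0.39 (limma, adjusted p = 0.999), and it turned to -0.12 after quantile normalization. The highest and the lowest of the 6 Cd96 values are WT 2 and cKO 2.

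Cd226 (ENSMUSG00000034028), the activating competitor, stood at 47.2, 48.3 and 57.8 FPKM in cKO 1, 2 and 3, against 47.8, 40.0 and 42.4 FPKM in WT 1, 2 and 3. Only WT 1 reached into the range of the libraries labelled cKO, and the groups did not overlap when libraries were scaled to equal sums, without WT replicate 1 or without cKO replicate 1. The log2 difference was 0.23 with a 95% interval from -0.11 to 0.57 (limma, adjusted p = 0.925). Pvr itself was measured in the Treg libraries at 11.7, 15.2 and 11.5 FPKM in cKO 1, 2 and 3, against 10.7, 11.4 and 9.82 FPKM in WT 1, 2 and 3. The groups did not overlap, but cKO 3 and WT 2 were nearly equal (limma, adjusted p = 0.925).

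The balance of inhibitory to activating receptor on this ligand was read as the ratio of FPKM in each library. Tigit over Cd226 was 6.56, 7.21 and 6.75 in cKO 1, 2 and 3, against 3.98, 4.21 and 4.79 in WT 1, 2 and 3. The groups lay apart in this ratio, with means of 6.84 ± 0.337 under the cKO label and 4.33 ± 0.415 under the WT label (SD, n = 3 each), and a ratio within a library does not depend on how the library is scaled. Cd96 over Cd226 was 5.25, 4.13 and 4.24 in cKO 1, 2 and 3, against 4.45, 6.72 and 4.94 in WT 1, 2 and 3, and the groups overlapped. Tigit lay apart by itself and Cd226 overlapped, so Tigit over Cd226 largely restates the Tigit values and is no separate result. These ratios were not tested.

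**Figure D2:**
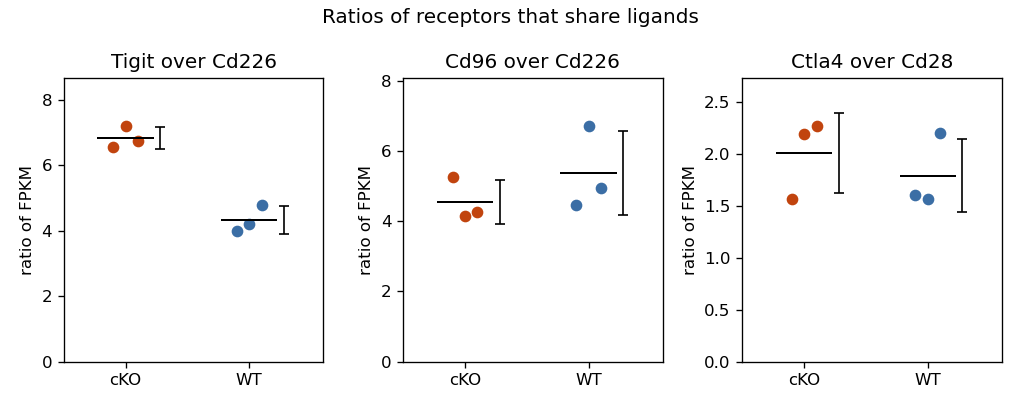
Ratio of FPKM in each library for Tigit over Cd226, Cd96 over Cd226 and Ctla4 over Cd28 (points, replicates 1 to 3 from left to right), with the mean (line) and SD (bar) of the libraries labelled cKO on the left and of those labelled WT on the right. Tigit over Cd226 lies between 6.56 and 7.21 in the libraries labelled cKO and between 3.98 and 4.79 in those labelled WT; the other ratios overlap.

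Havcr2 (ENSMUSG00000020399) was the scarcest of the 9 and had the largest ratio between the groups. TIM-3 is found on terminally activated T cells and on myeloid cells. It stood at 2.64, 2.45 and 0.873 FPKM in cKO 1, 2 and 3, against 0.438, 0.392 and 0.1002 FPKM in WT 1, 2 and 3. The groups did not overlap, but cKO 3 lay nearer to the libraries labelled WT than to cKO 1 and 2. About 26, 34 and 9 fragments lay behind the values in cKO 1, 2 and 3, against about 5, 3 and 1 in WT 1, 2 and 3. Summed and scaled by depth, 69 fragments against 9 give a ratio of 7.02 with a 95% counting interval (exact, Clopper-Pearson) from 3.49 to 16.0, which covers counting error within these libraries and no spread between them. It treats the estimated fragments as independent counts. Havcr2 passed the minimum mean only through the libraries labelled cKO, so neither this interval nor the fitted one below can decide whether it differs.

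On log2(FPKM + 1), which understates changes at this level, Havcr2 differed by 1.14, with 0.22 and 2.06 as the bounds of its 95% interval (limma, adjusted p = 0.915). That difference was 2.33 with a pseudocount of 0.1 and 0.39 with a pseudocount of 5. It passed in none of the 13 alternatives that tested it (limma, adjusted p from 0.476 to 1). Without cKO replicate 1 or without cKO replicate 2 the mean was under 1 FPKM and the gene was not tested. Markers of myeloid cells, which also express Havcr2, summed to 459, 965 and 287 FPKM in cKO 1, 2 and 3, against 356, 371 and 235 FPKM in WT 1, 2 and 3, with 10 of 11 tested markers above 0 in their log2 difference and 1 of 11 whose groups did not overlap, against 10.7% of all genes. Of these 10, Ly6g passed the minimum mean only through the libraries labelled cKO, so its direction was set by that filter. Of the defining ones, Lyz2 lay between 64.7 and 83.2 FPKM under the cKO label and between 35.5 and 71.4 FPKM in those labelled WT, and Ly6g was listed at 0 in cKO 3 and in each library labelled WT. Csf1r, Cd68 and Cybb overlapped, with log2 differences of 0.025, -0.050 and 0.059. In cKO 2, S100a8 and S100a9 made up 545 and 245 FPKM of the myeloid sum. The part of myeloid transcripts in the Havcr2 values was not tested. In bulk libraries more cells with a transcript and more transcript per cell cannot be told apart.

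Btla (ENSMUSG00000052013) was lower in each of the libraries labelled cKO. BTLA is an inhibitory receptor of T and B cells that binds HVEM, the product of Tnfrsf14. It stood at 23.3, 14.4 and 23.7 FPKM in cKO 1, 2 and 3, against 26.6, 25.3 and 25.3 FPKM in WT 1, 2 and 3. The libraries labelled WT lay close together at 25.7 ± 0.778 FPKM, and cKO 2 stood far below all others. The log2 difference was -0.35 with a 95% interval from -0.86 to 0.16 (limma, adjusted p = 0.925), and it was -0.13 without cKO replicate 2. The groups overlapped once libraries were scaled to equal sums, where the difference was -0.20. Markers of B cells, which also express Btla, summed to 136.5, 183 and 167 FPKM in cKO 1, 2 and 3, against 171, 160.2 and 122 FPKM in WT 1, 2 and 3. Of the 10 tested B cell markers, 8 were above 0 in their log2 difference and the groups did not overlap in 1, against 10.7% of all genes. The part of B cell transcripts in the Btla values was not tested. Of 9 tested markers of conventional CD4 and follicular T cells, 5 were above 0 in their log2 difference. The groups lay apart in 1 higher, Il4, and in 2 lower, Cxcr5 and Tnfsf8, against 6.96% and 3.75% of all genes. Cxcr5 averaged 31.0 FPKM under the cKO label and 38.6 FPKM under the WT label, and Tnfsf8 29.4 and 37.5 FPKM. The part of such cells in the Btla values was not tested either.

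A further receptor for HVEM lay in the same direction as Btla. Cd160 encodes a surface protein of cytotoxic and some activated T cells. Its values were 16.0, 21.9 and 22.9 FPKM in cKO 1, 2 and 3, against 30.1, 31.6 and 33.0 FPKM in WT 1, 2 and 3, with no overlap and a log2 difference of -0.63 (standard error 0.172; limma, adjusted p = 0.863). Tnfrsf14, the ligand's gene, varied widely within both groups, at 4.82, 19.8 and 3.38 FPKM in cKO 1, 2 and 3, against 9.42, 3.96 and 12.6 FPKM in WT 1, 2 and 3. The markers of CD8 and NK cells, which can carry Cd160, summed to between 121 and 147 FPKM under the cKO label and to between 95.4 and 120.3 FPKM in those labelled WT. Of the 6 tested markers of that list, 4 were above 0 in their log2 difference. The groups lay apart in 2, against 10.7% of all genes, with Nkg7 higher and Klrd1 lower under the cKO label. Klrd1 passed the minimum mean only through the libraries labelled WT, so it had to differ. Nkg7, a granule protein of cytotoxic cells, lay between 83.3 and 107 FPKM under the cKO label and between 59.6 and 79.2 FPKM under the WT label. Prf1 lay in the other direction, with means of 4.27 FPKM under the cKO label and 6.93 FPKM under the WT label, and overlapped. Gzma also overlapped, with a log2 difference of 0.01. Of the chains of CD8, Cd8b1 lay between 19.4 and 22.4 FPKM under the cKO label and between 18.8 and 20.7 FPKM under the WT label, while Cd8a was at most 0.531 FPKM in any library. Their part in the Cd160 values was not tested.

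Ctla4 (ENSMUSG00000026011), the inhibitory receptor on which Treg function rests most, stood at 101, 132 and 172 FPKM in cKO 1, 2 and 3, against 98.9, 96.3 and 129 FPKM in WT 1, 2 and 3. The lowest library labelled cKO lay within the range of those labelled WT and the 2 highest of the 6 values were cKO 3 and cKO 2. The log2 difference was 0.30 with a 95% interval from -0.24 to 0.84 (limma, adjusted p = 0.925). Leaving out cKO replicate 3 gave 0.11. Leaving out cKO replicate 1 gave 0.49, and there, as without WT replicate 3, the groups did not overlap.

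The costimulatory relatives of Ctla4 neighbour it on chromosome 1, with no coding gene between Cd28, Ctla4 and Icos in RefSeq. Icos, a costimulatory receptor of activated T cells, had 129, 149 and 179.9 FPKM in cKO 1, 2 and 3, against 93.2, 90.7 and 74.4 FPKM in WT 1, 2 and 3, with no overlap (log2 difference 0.81; limma, adjusted p = 0.748). Cd28, the competitor of Ctla4 for CD80 and CD86, overlapped, with means of 66.9 ± 8.10 FPKM under the cKO label and 60.5 ± 1.62 FPKM under the WT label (SD, n = 3 each). Ctla4 over Cd28 was 1.57, 2.19 and 2.27 in cKO 1, 2 and 3, against 1.61, 1.57 and 2.20 in WT 1, 2 and 3. The groups overlapped in this ratio, as they did in Ctla4 and in Cd28.

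Pdcd1 (ENSMUSG00000026285), which encodes PD-1, stood at 267, 176 and 180.4 FPKM in cKO 1, 2 and 3, against 188, 215 and 158 FPKM in WT 1, 2 and 3. Its highest value was cKO 1, and the other two libraries labelled cKO lay inside the range of those labelled WT. The log2 difference was 0.14 with a 95% interval from -0.36 to 0.63 (limma, adjusted p = 0.960), and -0.06 without cKO replicate 1. Its ligands were also measured in the Treg libraries. Cd274 averaged 17.4 ± 1.88 FPKM under the cKO label and 14.8 ± 1.21 FPKM under the WT label (SD, n = 3 each), and Pdcd1lg2 averaged 14.5 ± 5.09 FPKM under the cKO label and 10.3 ± 2.38 FPKM under the WT label, and both overlapped.

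Lag3 (ENSMUSG00000030124), whose product binds MHC class II, stood at 54.6, 60.11 and 55.6 FPKM in cKO 1, 2 and 3, against 86.4, 60.06 and 62.8 FPKM in WT 1, 2 and 3. Only cKO 2 and WT 2, which were nearly equal, kept the groups from lying apart, and the highest value was WT 1. The log2 difference was -0.27 with a 95% interval from -0.68 to 0.13 (limma, adjusted p = 0.925), and -0.11 without WT replicate 1. The groups of Lag3 lay apart, lower in the libraries labelled cKO, after quantile normalization, without cKO replicate 2 and without WT replicate 2.

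Cd200 (ENSMUSG00000022661) had the widest spread of the abundant members, at 70.0, 179 and 131 FPKM in cKO 1, 2 and 3, against 142, 95.6 and 128 FPKM in WT 1, 2 and 3. The highest and the lowest values both belong to libraries labelled cKO, so its log2 difference of -0.03 carries a 95% interval from -0.86 to 0.81 (limma, adjusted p = 0.999). The difference was 0.13 with equal sums, and leaving out cKO replicate 1 gave 0.35. Cd200r1, the inhibitory receptor for CD200, was by contrast apart, at 32.2, 27.3 and 30.9 FPKM in cKO 1, 2 and 3, against 19.2, 20.9 and 18.7 FPKM in WT 1, 2 and 3. Tigit, Cd200r1, Btla, Cd200 and Cd96 lie in this order on chromosome 16 in RefSeq, with no coding gene between Btla and Cd200, and their differences had no common direction. Cd200r1 differed by 0.59 on the log2 scale (standard error 0.137; limma, adjusted p = 0.846). It belongs to a family of related genes, and how the authors assigned fragments shared between relatives is not given in the sources used here.

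**Figure D3:**
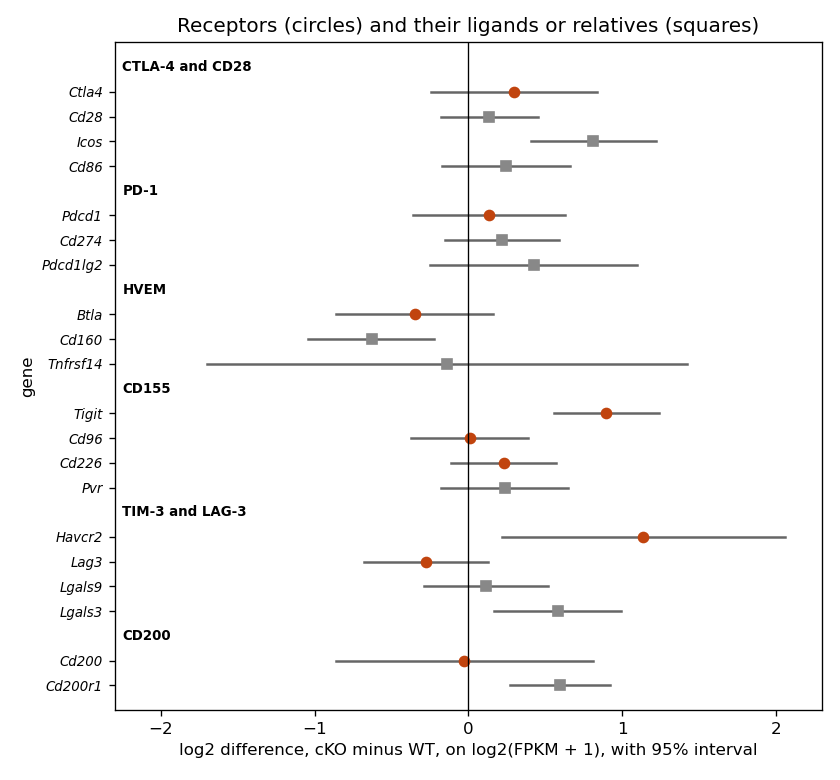
Log2 difference (libraries labelled cKO minus those labelled WT, on log2(FPKM + 1)) with its 95% interval for the 9 genes (circles) and the ligands or relatives of each (squares), grouped by shared ligand or receptor pair. The intervals of Tigit, Havcr2, Icos, Lgals3 and Cd200r1 lie above 0 and that of Cd160 below 0, and none of these passed after adjustment over all genes. Havcr2 passed the minimum mean only through the libraries labelled cKO, so its direction was set by that filter.

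The order of the levels differed at the top between the groups. In the libraries labelled cKO it ran Tigit, Cd96, Pdcd1, Ctla4, Cd200, Lag3, Cd226, Btla and Havcr2, and neighbours overlapped between Cd96 and Pdcd1, between Ctla4 and Cd200, and between Lag3 and Cd226. In those labelled WT it ran Cd96, Tigit, Pdcd1, Cd200, Ctla4, Lag3, Cd226, Btla and Havcr2, with overlap between Tigit and Pdcd1 and between Cd200 and Ctla4. Tigit made up 27.6%, 30.1% and 31.0% of the summed FPKM of the 9 genes in cKO 1, 2 and 3, against 19.2%, 17.3% and 21.2% in WT 1, 2 and 3. The sum itself was 1124, 1160 and 1257 FPKM in cKO 1, 2 and 3, against 993, 969 and 958 FPKM in WT 1, 2 and 3. Among the 9 genes the difference between the means was largest for Tigit.

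The receptors were not all high in the same libraries. Each gene was centred on its mean over the 6 libraries on log2(FPKM + 1), and the likeness of a pair was measured as the root mean square distance between the profiles, where 0 means the same profile. Profiles were not scaled to equal spread, so genes that vary little lie close whatever their shape. A small distance alone therefore does not show that genes rise together. Pdcd1 and Cd96 were the closest pair, at 0.183, and stood on the same side of their means in 5 of 6 libraries. Both were above their mean in cKO 1 and WT 2, the libraries with the lowest estimated depth (3620000 and 3040000 fragments), and the part of depth in this was not tested. Other T cell genes, Lck, Cd4 and Cd3e but not Cd3d or Cd3g, were also highest in cKO 1 and WT 2. The pattern is therefore not particular to Pdcd1 and Cd96. Cd200 was on the opposite side from Pdcd1 in all 6 libraries, at a distance of 0.648.

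Tigit and Havcr2 stood on the same side in 5 of 6 libraries, at a distance of 0.453, with cKO 3 highest for Tigit and close to the mean for Havcr2. By distance Tigit was nearer to Ctla4 (0.334) and to Cd226 (0.344), which vary less than Havcr2 and also peaked in cKO 3. Ctla4 stood on the same side as Tigit in 4 of 6 libraries and Cd226 in 5 of 6. Lag3 and Tigit were on the same side in 1 of 6 libraries. Of the 9 genes, 6, 5 and 6 were above their own mean in cKO 1, 2 and 3, against 4, 3 and 4 in WT 1, 2 and 3, and Tigit was the only one above it in every library labelled cKO and below it in every library labelled WT.

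**Figure D4:**
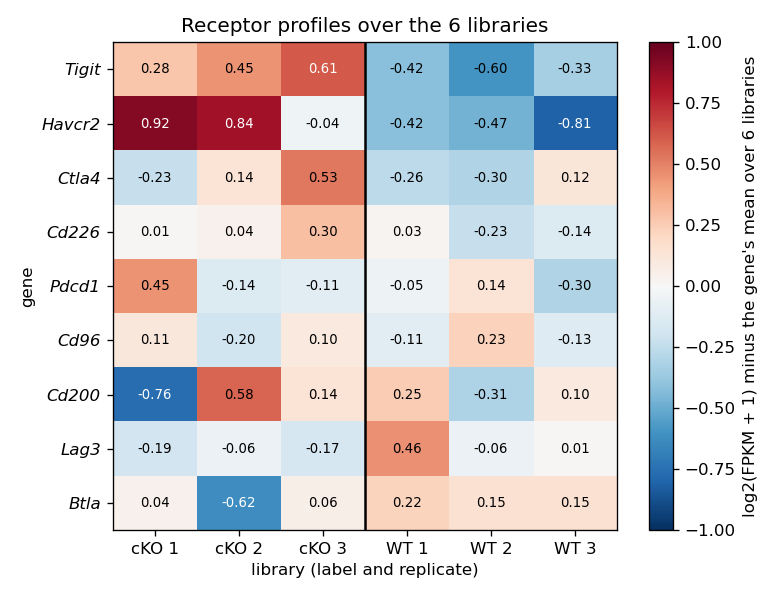
Each gene's log2(FPKM + 1) minus its mean over the 6 libraries, with libraries labelled cKO left of the line and those labelled WT right of it. Tigit is above its mean in all 3 libraries labelled cKO, Havcr2 in cKO 1 and 2, and Pdcd1 and Cd96 share high values in cKO 1 and WT 2.

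Outside the set, the genes nearest to Tigit in profile over the 6 libraries were Ly6a (0.113), Cd9 (0.134), Cish (0.147), Gmnn (0.152) and Cxcr6 (0.152), among 6223 coding genes whose mean reached 10 FPKM. Ly6a, which encodes the surface antigen Sca-1, stood at 698, 830.2 and 862 FPKM in cKO 1, 2 and 3, against 381, 319.9 and 409 FPKM in WT 1, 2 and 3. Cish, a feedback inhibitor of cytokine signalling, averaged 369 FPKM under the cKO label and 240.4 FPKM under the WT label. The genes nearest to Havcr2 were Zfp35 (0.151), 2310061I04Rik (0.195), Tacc3 (0.221), Tfeb (0.269) and Racgap1 (0.271). All of these genes were chosen for profiles like those of Tigit or Havcr2, whose groups lay apart, so their direction was set by that choice. With 6 libraries such likeness describes these values and no relation between the genes.

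The other genes of the pathway gave no call after adjustment over all genes (limma, adjusted p), with 0 of 10 tested ligands and counter-receptors, 0 of 12 other inhibitory receptors, 0 of 8 costimulatory relatives, 0 of 22 signalling and trafficking partners and 0 of 18 regulators. At an unadjusted p under 0.05 there were 2 higher and 1 lower among the ligands, 1 and 1 among the other inhibitory receptors, 2 and 0 among the costimulatory relatives, 1 and 0 among the partners, and 3 and 0 among the regulators, beside 3.59% higher and 1.78% lower over all genes. The 1 lower gene is Cd160 in both lists, which share it. The median log2 differences of these lists were 0.24, -0.13, 0.22, 0.02 and 0.13, beside 0.03 over all genes tested. Among these genes Nectin3, Fgl1 and Klra3 were listed at 0 in all 6 libraries. Cd80, a ligand of CTLA-4 and CD28, was under the minimum mean and not tested, at 0.421, 0.757 and 0.227 FPKM in cKO 1, 2 and 3, against 1.58, 0.811 and 2.08 FPKM in WT 1, 2 and 3.

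Among the other inhibitory receptors, Klrg1, a receptor of cadherins on terminally differentiated lymphocytes, averaged 65.7 ± 6.51 FPKM under the cKO label and 42.8 ± 4.84 FPKM under the WT label (SD, n = 3 each; log2 difference 0.61; limma, adjusted p = 0.846). Pecam1, an adhesion molecule with inhibitory tail motifs, averaged 46.8 ± 1.82 FPKM under the cKO label and 57.9 ± 7.17 FPKM under the WT label, with no overlap in the other direction (limma, adjusted p = 0.925). Siglecg, an inhibitory lectin of B cells, averaged 0.586 ± 0.107 FPKM under the cKO label and 1.69 ± 0.886 FPKM under the WT label, and passed the minimum mean only through the libraries labelled WT. Lgals3, a galectin reported to bind LAG-3, averaged 38.8 ± 2.33 FPKM under the cKO label and 25.9 ± 5.18 FPKM under the WT label, while Lgals9, the ligand of TIM-3, overlapped at 334 ± 65.9 FPKM under the cKO label and 306 ± 20.9 FPKM under the WT label.

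The list of regulators is mixed and not limited to drivers of the receptor genes, since it also holds the cytokine gene Il10. Prdm1, which encodes the repressor Blimp-1, stood at 8.13, 11.99 and 7.78 FPKM in cKO 1, 2 and 3, against 5.19, 4.83 and 4.66 FPKM in WT 1, 2 and 3 (log2 difference 0.78; limma, adjusted p = 0.863). Tox2, a factor of activated and exhausted T cells, averaged 20.5 ± 2.67 FPKM under the cKO label and 13.6 ± 1.96 FPKM under the WT label (SD, n = 3 each). Il10, the suppressive cytokine that often accompanies TIGIT and TIM-3, averaged 3.67 ± 1.18 FPKM under the cKO label and 1.48 ± 0.434 FPKM under the WT label. The groups of these 3 did not overlap, out of 18 tested genes of that list, against 6.96% of all genes higher under the cKO label. Tox2 and Il10 did not pass either (limma, adjusted p = 0.915 for each), and about 5 to 30 fragments lay behind each Il10 value. Maf, a partner of Blimp-1 at these genes, overlapped at 15.9 ± 2.31 FPKM under the cKO label and 11.8 ± 1.63 FPKM under the WT label. Among the signalling partners the groups did not overlap in 1 of 22, a smaller share than the 10.7% of all genes. That gene was Sh2d1a, the adaptor SAP, at 316 ± 37.0 FPKM under the cKO label and 237 ± 7.87 FPKM under the WT label. The phosphatase genes Ptpn6 and Ptpn11, which PD-1 and BTLA recruit, both overlapped.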

How the data were processed

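RNA of sorted spleen Treg was sequenced from SmartSeq2 libraries on a HiSeq, per the labels' protocols, in 3 libraries labelled cKO and 3 labelled WT. The submitters' processing notes name FastQC, cutadapt, HISAT2 and the builds NCBIM37 and mm9, without versions. The deposited values are FPKM for 36811 genes, and the table's name points to cuffnorm. Annotation, strand setting and filters: not given in the sources used here. Symbols were found for 31840 identifiers and for all 9 receptors, and no receptor exon overlapped an exon of another gene in GENCODE M21.

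FPKM were fitted with limma 3.58.1 (R 4.3.3) after adding 1 and taking log2, with a trend of variance on level. Genes averaging 1 FPKM or more entered, 11979 in all, and p-values were adjusted over all of them by Benjamini-Hochberg with a threshold of 0.05. The procedure was tested on simulated data. Other steps used numpy 2.4.6 and pandas 2.3.3 in Python 3.11.15, and figures were drawn with matplotlib 3.10.9. Depth was estimated from the steps between low FPKM values of 581 genes with a single transcript of at least 2000 bases, and fragments behind a value from the longest coding transcript. Both are estimates, and intervals from them cover counting error only. With 3 libraries against 3, an exact two-sided permutation test cannot go below 0.1, so none was used.

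The naming rule took the 9 receptors, Bach2, Foxp3, up to 4 members with the smallest p of each pathway list, any list member whose groups do not overlap, and the 5 genes nearest in profile to Tigit and to Havcr2. Not all are printed. Il2ra, Hbb-bs, the markers Lyz2, Ly6g, Cd8a, Cd8b1, Nkg7 and Klrd1, and Cd80, Lgals9, Ptpn6 and Ptpn11 were named with their values in view. The same holds for the markers Capg, Lrrc32, Csf1r, Cd68, Cybb, S100a8, S100a9, Prf1, Gzma, Il4, Cxcr5 and Tnfsf8. The receptors, lists and rule were chosen with earlier results of these data known. Of the listed inhibitory receptors, Lilrb4a and Pvrig found no match. The alternatives changed the pseudocount (0.1 or 5), the filter (none, or a mean of 5 FPKM), the scaling (quantile, equal sums or trimmed mean), the variance trend and the library weights, added a replicate block, or left out 1 library. Promoters are RefSeq sequences on GRCm38.p6, which is not the build of the FPKM values. The values of 1 marker gene are not reported here.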

Additional observations from a re-analysis of the deposited data

How the results depend on the processing

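None of the 9 receptors passed after adjustment over all genes (limma) in any of the 16 alternatives, all planned, in which it was tested. Of 141 log2 differences of single receptors, 130 kept their direction and 11 turned, and the cause was not tested. The turned values were -0.119 after quantile normalization and -0.031 with trimmed-mean scaling for Cd96, and 0.129 with equal sums for Cd200. Without 1 library, Cd96 lay between -0.056 and 0.122, Cd200 between -0.324 and 0.346, and Pdcd1 between -0.057 and 0.242. The median over the receptors was 0.033 after quantile normalization, 0.293 with equal sums and between 0.020 and 0.175 without 1 library. Equal sums moved the median of all genes tested to 0.18, against 0.03, and genes at an unadjusted p under 0.05 to 770 higher and 96 lower, against 430 and 213. The count of 3 genes past the threshold became 1 under the replicate block, and ranged over 5 to 15 when a library was left out. The replicate numbers do not pair the libraries: correlations were -0.06, -0.179 and -0.0173 for the same number and up to 0.128 for different numbers, so a call that ends under the block is no sign of a smaller effect. Depth limits Havcr2, with 1 to 5 fragments behind each value in the libraries labelled WT, and it was not tested with a minimum mean of 5 FPKM or without cKO replicate 1 or 2.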
